A study of Mus musculus with 7 samples.

Results

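The genes described here are 10 genes known from thymocytes and from T cells that have just left the thymus: Dntt, Rag1, Rag2, Ptcra, Sox4, Sox13, Satb1, Bcl11a, Tox and Cd24a. They were taken by name from the 34797 gene names on a mouse expression array and were read by 17 of its 55681 probes. The question put to them was whether they move together, as genes of a younger or older pool of cells would, when the tyrosine kinase Lck is switched off. Lck is the kinase that acts first when a T cell receptor is engaged.

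Total RNA came from lymph node T cells of mice that carried 1 copy of the OT-1 transgene, a T cell receptor for an ovalbumin peptide, and were Rag-/-. Both groups shared these features and the same sort for CD8b and low CD44, a naive surface pattern, and no activation is given. The Lck-off group held 4 samples, from mice that were also Lck-/- and had depended on a knocked-in Lck kept on by doxycycline, until the drug was left out of the diet for 7 days. The WT group held 3 samples with Lck of their own, and the labels do not give their diet. No mice of the Lck-off genotype still on doxycycline were analysed here, so the genotype, the diet and the loss of Lck cannot be told apart. Samples are called biological replicates, without a statement that each was 1 animal, and the promoter that drives the knocked-in Lck is not stated.

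During T cell development in the thymus, the RAG recombinase, made of Rag1 and Rag2, cuts receptor gene segments, and terminal deoxynucleotidyl transferase, the product of Dntt, adds bases to the cut ends before they are joined. Ptcra encodes the invariant chain of the pre-T cell receptor, which pairs with the first rearranged beta chain. The HMG-box factors Sox4, Sox13 and Tox, the chromatin organiser Satb1 and the zinc finger factor Bcl11a act in thymocytes or earlier progenitors, and Cd24a encodes heat stable antigen, which is high on thymocytes and recent emigrants and is lost as T cells mature. In mice with a ready-made receptor and no RAG, cells reach the lymph node without rearranging receptor genes of their own.

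Each gene was read by probes of 60 bases. The first 30 bases, 5′ to 3′ in the sense of the transcript, are printed in lower case for the probes of the genes that differed most, because every value below is the brightness of such a probe. Positions of the whole probe are those in the array files, on mouse build mm9. The Dntt probe lies at chr19:41133936-41133995 on the plus strand, the Sox4 probes at chr13:29040826-29040885, chr13:29042856-29042915 and chr13:29044482-29044541 on the minus strand, the Tox probes at chr4:6614755-6614814 and chr4:6613551-6613610 on the minus strand, and the Cd24a probe at chr10:43303706-43303765 on the plus strand. The 3 Sox4 probes read different stretches of the same gene, as do the Tox probes.
Dntt: aagcgcatcaatgcccacctgactcctgtg
Sox4, probe 1: aatcctgtccgtcactgcctgtcaggttgt
Sox4, probe 2: ttttctgcaatgaagacagaaagaaggctc
Sox4, probe 3: tcaagcacatggctgactaccctgactaca
Tox, probe 1: tccaagtcctgttatggataaagctgccaa
Tox, probe 2: gagagctcaaactttactgtcttgatactg
Cd24a: cttggttctaccgtaagtttttccaatttc

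Of the 10 genes, 6 had a probe well above background on at least 3 of the 7 arrays and were measured (Dntt, Sox4, Tox, Cd24a, Satb1 and Sox13), through 9 of the 17 probes. Rag1, Rag2, Ptcra and Bcl11a had none. A probe that the scanner software did not call well above background is described as within background. A level here is the log2 intensity of a gene's brightest such probe minus the 75th percentile of its array, a difference is the Lck-off mean minus the WT mean on that scale, and p-values are from limma with Benjamini-Hochberg adjustment over all 18230 genes measured. At an adjusted p under 0.05, 1 of the 6 measured genes was higher in Lck-off (Dntt), 2 were lower (Sox4 and Tox) and 3 did not pass. Over all genes, 3.80% were called higher and 4.57% lower. The median difference of the 6 was -0.25, against -0.01 over all genes. Its absolute size was 0.83 at the median, against 0.13 over all genes. The Lck-off and WT arrays did not overlap for 4 of the 6 (Dntt, Sox4, Tox and Cd24a), as for 21.8% of all genes. The measured genes thus did not share a direction, since Dntt rose and Sox4 and Tox fell.

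**Figure D1:**
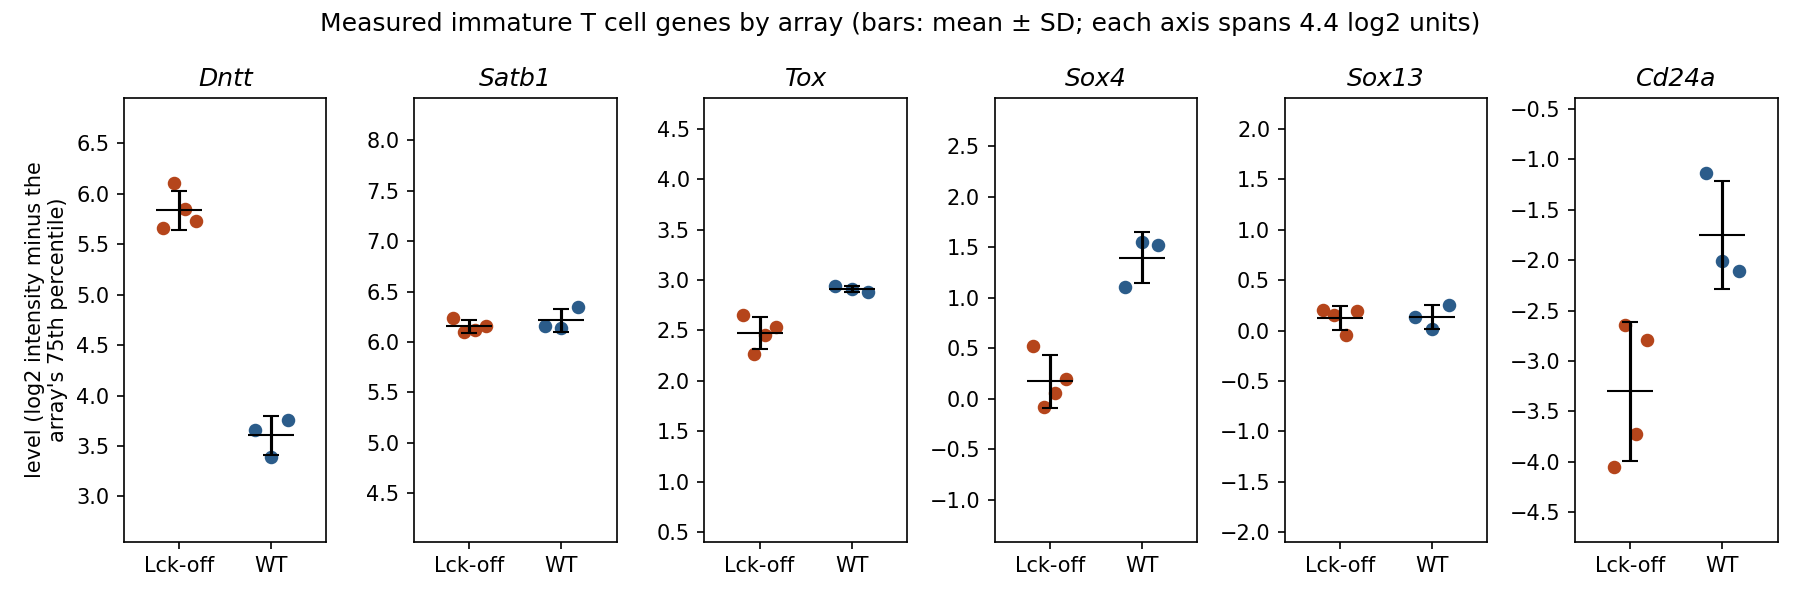
Levels of the 6 measured immature T cell genes (log2 intensity minus the array's 75th percentile) on each Lck-off array (left, n = 4) and each WT array (right, n = 3), with the mean and SD as bars. Dntt stands higher in Lck-off by 2.23, Sox4, Tox and Cd24a stand lower without overlap, and the groups overlap for Satb1 and Sox13.

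The samples bore the marks of the cells named in their labels. The CD8 and CD3 chain genes Cd8a, Cd8b1, Cd3d, Cd3e and Cd3g were well above background on every array, with a mean level of 7.50 to 7.55 in Lck-off and 7.37 to 7.45 in WT, and 0 of the 5 differed at an adjusted p under 0.05 by limma (2 at an unadjusted p under 0.05). The Lck message itself was at 8.52, 8.83, 8.60 and 8.55 on the Lck-off arrays and at 8.99, 9.02 and 8.98 on the WT arrays. That is 77.2% of WT (95% interval 66.6% to 89.4%; limma adjusted p = 0.0493), a call lost on leaving out any array but Lck-off array 2. The labels do not give the part of Lck that is disrupted, so a probe outside it would not check the genotype. Arrays correlated at r = 0.990 to 0.995 within a group and 0.983 to 0.987 between groups, over genes. In bulk RNA, fewer cells of a type and less RNA per cell cannot be told apart, which holds for every level given here.

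Dntt was the only one of the 6 measured genes to rise. Its levels were 5.66, 6.10, 5.85 and 5.73 on Lck-off arrays 1 to 4, against 3.66, 3.39 and 3.76 on WT arrays 1 to 3. Every Lck-off array stood well above every WT array, and the gap between the groups was many times the spread within either. As processed intensity in scanner units, the same spots gave 11167.5, 14594.4, 13973.4 and 12326.5 in Lck-off and 2623.71, 2209.45 and 3178.61 in WT, so that the transcript was well above background in the WT samples too. The means were 5.83 ± 0.20 in Lck-off (SD, n = 4) and 3.60 ± 0.19 in WT (SD, n = 3). The difference was 2.23 (SE 0.14), a 4.69-fold rise with a 95% interval of 3.76 to 5.85 (limma adjusted p = 0.000328). It ranked number 69 of the 693 genes called higher. Of the 35 ways to split 7 arrays into 4 and 3, only the labelled one gave a difference this large, which is the smallest p such an exact permutation test allows (p = 0.0286, two-sided). Leaving out each array in turn gave differences of 2.13 to 2.31, and all 7 repeats kept the call. Within each row of the slide the difference was of like size, 2.22 in row 1 (2 Lck-off arrays and 1 WT array, limma adjusted p = 0.0549) and 2.17 in row 2 (2 and 2, limma adjusted p = 0.0748).

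Dntt is also transcribed in B cell progenitors and in some plasmacytoid dendritic cells, so the markers of those cells are given beside it; markers named that did not pass were picked after their values were seen. Of 13 B lineage markers, 6 stayed within background on all arrays, among them Ms4a1, Ebf1, Pax5, Igll1 and Fcrla. Another 5 were measured, and their mean level was -0.85 to -0.39 in Lck-off and -0.92 to -0.70 in WT. By limma 0 of the 5 passed at an adjusted p under 0.05, and 1 did at an unadjusted p under 0.05. Vpreb1, the surrogate light chain gene of B progenitors, averaged -0.65 in Lck-off and -0.81 in WT (limma adjusted p = 0.716). Cd79b was brighter, at 3.62 in Lck-off and 3.70 in WT, and Cd79a dimmer, at -2.39 and -2.38 (limma adjusted p = 0.746 and 0.973). Cd22 differed by 0.24 without overlap (limma adjusted p = 0.183). Blnk differed by 0.61 with overlapping groups (limma adjusted p = 0.311), and was well above background on 3 Lck-off arrays and 1 WT array. Of 15 dendritic cell markers, 9 were measured, with a mean level of -0.56 to 0.33 in Lck-off and -1.30 to -0.51 in WT, and Clec9a, Spib and Runx2 stayed within background throughout. Ly6d, a lymphoid progenitor and plasmacytoid marker, was within background in WT, and the Lck-off level was at least 3.57-fold higher (limma adjusted p = 0.00417). It passed the filter on dim probes through the Lck-off arrays alone, and its p-value rests on WT signal within background. The mean levels of the list include it. When only genes well above background on all 7 arrays were kept, 1 marker of the list was called higher. The transcription factor gene Tcf4 was higher by 0.68 (limma adjusted p = 0.0440), a call kept only by the repeat without WT array 3 among 7. The other 7 did not pass. Among them Siglech, the plasmacytoid surface lectin gene, averaged 8.10 in Lck-off and 8.00 in WT (limma adjusted p = 0.609). That level was near the one of Cd3e, 8.02 in Lck-off and 8.06 in WT, and which cells gave the Siglech signal was not tested. The factor gene Irf8 differed by 0.30 and the cytokine receptor gene Flt3 by -0.69 (limma adjusted p = 0.632 and 0.608). The class II antigen presentation genes H2-Ab1 and Cd74 differed by 1.40 and 1.12, with overlapping groups (limma adjusted p = 0.223 and 0.265). H2-Aa was well above background on 4 Lck-off arrays and 2 WT arrays and did not pass (limma adjusted p = 0.374). In all, 3 of the 9 were at an unadjusted p under 0.05, and the median difference of the 9 was 0.68. The part of such cells in the Dntt level was not tested.

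The partners of Dntt in V(D)J joining did not move with it. All 15 listed genes were well above background on all 7 arrays, and 0 passed at an adjusted p under 0.05 by limma in either direction (1 at an unadjusted p under 0.05). Their median difference was -0.03. With all kept probes of a gene averaged, 1 of the 15 was called lower, and with trended and robust moderation 1 was called higher. Ku70 and Ku80, which hold the broken ends, differed by -0.11 (Xrcc6) and -0.18 (Xrcc5), and the repair kinase gene Prkdc by 0.03. Dclre1c, which encodes the nuclease Artemis, differed by 0.11 and the ligase gene Lig4 by -0.07. The polymerase genes nearest in kind to Dntt, Polm and Poll, differed by -0.16 and -0.02. Dnttip1 and Dnttip2, named for proteins that bind the transferase, differed by 0.14 and -0.03. The widest difference in the list, 0.39, was that of Hmgb1, whose product helps RAG bend DNA (limma adjusted p = 0.122), and these genes were named after their values were seen.

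Rag1 and Rag2, the catalytic and the accessory subunit of the recombinase, were below or near background in both groups. Neither of the Rag1 probes rose well above background anywhere. The first gave 15.3, 4.21, 10.9 and 5.64 scanner units in Lck-off and 5.36, 11.0 and 10.3 in WT, and the second 6.53, 4.81, 4.62 and 7.45 in Lck-off and 9.16, 4.41 and 8.28 in WT. The faintest spot well above background was at 13.9 to 21.4 in Lck-off and 14.7 to 18.5 in WT, so both probes lay mostly under it and the groups overlapped.

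For Rag2, 1 probe was printed in 10 spots on each array, and 1 of these 70 spots was well above background, on Lck-off array 1 at 66.9. The median over the 10 spots was 3.44 to 4.92 in Lck-off and 3.54 to 4.51 in WT. The other Rag2 probe gave 23.6, 12.1, 6.30 and 18.5 in Lck-off and 3.68, 8.69 and 37.5 in WT. It was well above background on Lck-off array 1 and on WT array 3 only, and its groups overlapped. The mice were Rag-/- and the labels do not say which of these genes was disrupted or how. The probes read stretches of the transcripts that a disruption need not remove, so these values do not check the genotype. No fold is given, since both groups are at or under the limit of detection.

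Ptcra and Bcl11a could not be measured either. The Ptcra probe was well above background on 0 of 7 arrays, with 6.03, 11.0, 8.90 and 16.5 scanner units in Lck-off and 10.8, 16.8 and 8.36 in WT. Of the 3 Bcl11a probes, 2 were well above background on no array. The remaining one gave 4.93, 3.55, 27.1 and 4.77 in Lck-off and 6.20, 9.19 and 3.57 in WT, and only Lck-off array 3 was well above background. The groups overlapped for Ptcra and for each of these Bcl11a readings. When all probes were tested without the filter on dim ones, the limma adjusted p of the 8 probes of Rag1, Rag2, Ptcra and Bcl11a ran between 0.893 and 0.988. A difference in these 4 genes was not detectable at this signal.

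**Figure D2:**
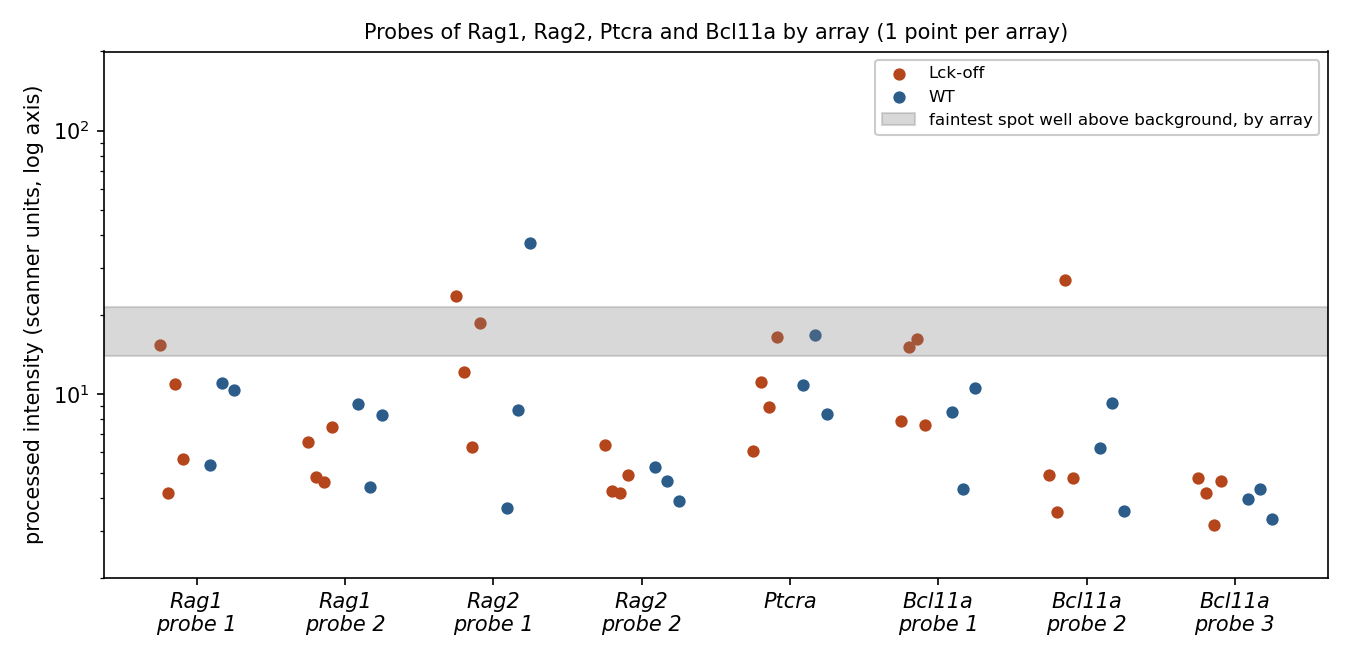
Processed intensity in scanner units (log axis) of the 8 probes of Rag1, Rag2, Ptcra and Bcl11a, 1 point per array, Lck-off left of WT for each probe. The grey band spans the faintest spot well above background on each array, 13.9 to 21.4, and nearly all points lie in or under it in both groups.

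Sox4, an HMG-box transcription factor of the SoxC family that is abundant in thymocytes, fell. Its brightest probe stood at 0.53, -0.09, 0.06 and 0.20 on Lck-off arrays 1 to 4 and at 1.11, 1.56 and 1.53 on WT arrays 1 to 3. All Lck-off arrays were below all WT arrays, with Lck-off array 1 and WT array 1 the nearest to each other. The means were 0.17 ± 0.26 in Lck-off (SD, n = 4) and 1.40 ± 0.25 in WT (SD, n = 3). The difference was -1.22 (SE 0.17), which puts Lck-off at 42.8% of WT with a 95% interval of 32.3% to 56.9% (limma adjusted p = 0.00590). It was number 134 by size of the 834 genes called lower. The exact permutation test gave its smallest p (p = 0.0286, 35 splits, two-sided). All 7 repeats without 1 array kept the call, with differences of -1.37 to -1.14. Within slide row 1 the difference was -1.54 (limma adjusted p = 0.0781) and within row 2 it was -0.97 (limma adjusted p = 0.192).

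The other Sox4 probes moved the same way. The second gave levels of -0.43, -0.50, -1.02 and -0.09 in Lck-off and -0.01, 0.50 and 0.69 in WT, a difference of -0.90 that did not pass when all kept probes were tested one by one (limma adjusted p = 0.0793). The third gave -2.42, -2.10, -2.11 and -1.91 in Lck-off and -1.58, -1.07 and -0.64 in WT, a difference of -1.04 that passed (limma adjusted p = 0.0358). In both, each Lck-off array was below each WT array, although for the second probe Lck-off array 4 and WT array 1 nearly met. The probes read the same gene in the same samples and are not separate evidence.

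Sox13, a SoxD factor linked to the gamma-delta T cell lineage, did not pass, and its groups overlapped. It stood at 0.20, 0.15, -0.05 and 0.19 in Lck-off and at 0.14, 0.01 and 0.25 in WT. The difference was -0.01 (SE 0.09), with an interval of 85.1% to 116% of WT (limma adjusted p = 0.969). Its sign turned when single arrays were left out, so it has no direction. Among the relatives of Sox4 and Sox13, Sox11, Sox12 and Sox6 stayed within background, and Sox5, the sister of Sox13, differed by 0.09 (limma adjusted p = 0.708).

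Satb1, which folds chromatin in thymocytes and is needed for their orderly development, was bright on every array. Its levels were 6.24, 6.10, 6.12 and 6.16 in Lck-off and 6.16, 6.14 and 6.34 in WT. The groups overlapped and differed by -0.06 (SE 0.08), with an interval of 84.3% to 109% of WT (limma adjusted p = 0.760). A 2-fold change of the Satb1 message in either direction lies outside that interval.

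Tox, an HMG-box factor that thymocytes need for positive selection into the CD4 lineage, fell by a smaller amount. The brighter probe gave 2.65, 2.27, 2.46 and 2.53 in Lck-off and 2.94, 2.91 and 2.88 in WT. The WT arrays lay close together and above all Lck-off arrays. The difference was -0.43 (SE 0.10), or 74.0% of WT with an interval of 63.1% to 86.8% (limma adjusted p = 0.0386). It was number 676 of the 834 falls by size. The call was lost without Lck-off array 3 or 4 or without WT array 1, 2 or 3 (limma adjusted p 0.0849 to 0.118 in these 5 repeats). The second probe gave 1.66, 1.04, 1.24 and 1.10 in Lck-off and 1.76, 1.83 and 1.52 in WT, so that its groups overlapped, and its difference of -0.45 did not pass (limma adjusted p = 0.181). Of the related genes, Tox2 and Tox4 were measured and differed by 0.03 and 0.38 without passing (limma adjusted p = 0.967 and 0.608), and Tox3 stayed within background on all arrays.

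Cd24a, the heat stable antigen gene, was lower on every Lck-off array but did not pass, and its spread was the widest of the 6 measured genes. Its levels were -4.05, -2.65, -3.72 and -2.79 in Lck-off and -1.14, -2.01 and -2.11 in WT. The groups did not overlap, yet the signal was low, at 13.4 to 33.9 scanner units in Lck-off and 52.2 to 94.5 in WT. On Lck-off array 1 it was not well above background, so that its level there is only a bound. The means were -3.30 ± 0.69 in Lck-off (SD, n = 4) and -1.75 ± 0.53 in WT (SD, n = 3). The difference was -1.55 (SE 0.41), or 34.1% of WT with an interval of 17.6% to 66.1%, and it did not pass over all genes (limma adjusted p = 0.0647). The exact permutation test gave p = 0.0286, the smallest that 35 splits allow. It passed in 5 of 21 alternatives, among them the deposited value table (difference -0.50, limma adjusted p = 0.0173), normexp background correction (-0.59, limma adjusted p = 0.0304) and quantile normalization (-1.56, limma adjusted p = 0.0494), and in 0 of the 7 repeats without 1 array.

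**Figure D3:**
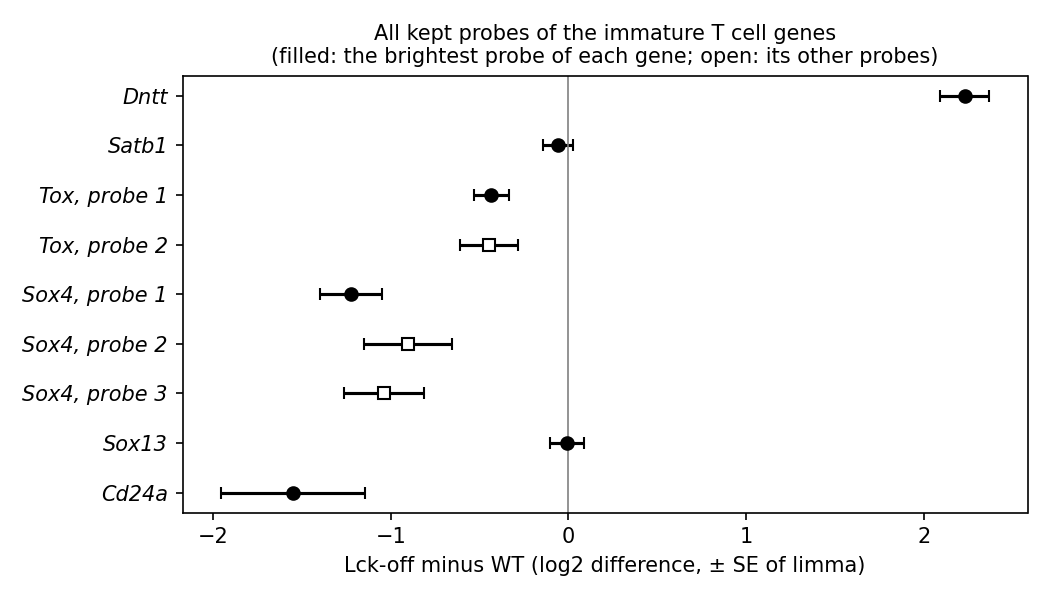
Lck-off minus WT difference (log2) with its limma standard error for the 9 kept probes, filled for the brightest probe of a gene and open for its other probes. Dntt lies at 2.23, the 3 Sox4 probes between -1.22 and -0.90, the Tox probes at -0.43 and -0.45 and Cd24a at -1.55, while Satb1 and Sox13 lie at -0.06 and -0.01.

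Other genes of the same stages of T cell life were read from lists, and the members of these lists named below that did not pass were picked after their values were seen. Genes of early thymocytes, before receptor rearrangement is complete, were mostly dark: of 14 listed, 6 were measured, and Notch3, Hes1, Kit, Hhex, Erg and Sfpi1 (Spi1) stayed within background on all arrays. One of the 6 rose. Il2ra, the IL-2 receptor alpha chain, which marks early thymocytes and also activated T cells, stood at -1.41, -0.85, -0.75 and -1.02 in Lck-off and stayed within background on the WT arrays, a rise of at least 6.46-fold (limma adjusted p = 0.00262). Il2ra passed the filter on dim probes through the Lck-off arrays alone, and its p-value rests on WT signal within background. Lyl1, a factor gene of blood progenitors, differed by 0.93 and Gata3, a factor gene of T cell commitment, by 0.33. Their Lck-off arrays lay above their WT arrays, and neither passed (limma adjusted p = 0.0638 and 0.0678). The Notch receptor gene Notch1 differed by 0.03 and its target Dtx1 by -0.20, and the progenitor factor gene Myb by 0.07, without passing (limma adjusted p = 0.942, 0.400 and 0.858). In all, 3 of the 6 were at an unadjusted p under 0.05, and 3 were called higher with the deposited value table and with trended and robust moderation. The median difference of the 6 was 0.20, and 0.07 when only genes well above background on all 7 arrays were kept, which leaves out Il2ra.

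Genes of double-positive thymocytes, the stage that carries both CD4 and CD8, were measured for 12 of 14, and 1 rose while 0 fell. This was Ccr9, a chemokine receptor of thymocytes and gut-homing T cells, with levels of 5.71, 5.64, 5.82 and 5.73 in Lck-off and 4.85, 5.05 and 5.19 in WT. Its difference was 0.69 (SE 0.10, limma adjusted p = 0.00529), and no repeat without 1 array lost the call. Cd4 differed by 0.04 (limma adjusted p = 0.892). Arpp21 was well above background on 3 Lck-off arrays and on 0 WT arrays and did not pass (limma adjusted p = 0.0820), and no difference is given for it. Ets2 differed by 0.23 without overlap and Bcl6 by -0.33 with overlap, and neither passed (limma adjusted p = 0.207 and 0.167). In all, 4 of the 12 were at an unadjusted p under 0.05. With quantile normalization, with all kept probes of a gene averaged or without WT array 1, 2 genes of the list were called higher. With the replicate number as a block, 0 were. The median difference of the 12 was 0.09.

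Of 16 transcription factor genes of the T lineage, 14 were measured, and 1 fell while 0 rose. Id3, an inhibitor of E proteins that receptor signals induce in thymocytes, stood at 3.26, 2.78, 2.91 and 2.95 in Lck-off and at 3.56, 4.16 and 4.13 in WT. Its difference was -0.97 (SE 0.18, limma adjusted p = 0.0174), and the call was lost without Lck-off array 3 or 4 or without WT array 2 or 3 (limma adjusted p up to 0.0697). Tcf7, Lef1 and Bcl11b, which set and hold T cell identity, differed by 0.08, -0.13 and 0.34 and did not pass (limma adjusted p = 0.662, 0.370 and 0.0564). Runx1, a factor gene of thymocytes and of blood progenitors, differed by 0.60 without overlap and did not pass (limma adjusted p = 0.0639). Under normexp, array weights, trended and robust moderation or the filter to all 7 arrays, 2 genes of the list were called higher. The median difference of the 14 was 0.05, and 0.13 without Lck-off array 1.

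Genes that rise as naive T cells mature after leaving the thymus were measured for 13 of 15, and 4 rose while 0 fell. The surface antigen gene Ly6c1 rose by 3.06 (limma adjusted p = 0.000350), and the class Ib MHC genes H2-Q8 and H2-Q7, of the Qa-2 region, rose by 1.17 and 0.64 (limma adjusted p = 0.00142 and 0.00146). H2-Q6, named after its value was seen, rose by 0.57 (limma adjusted p = 0.00523). All 4 belong to families of near-identical genes whose probes can cross-hybridise, and interferon is known to induce them. The other 9 did not pass, among them the survival receptor gene Il7r (-0.21, limma adjusted p = 0.234) and Klf2 (-0.02, limma adjusted p = 0.963), a factor of quiescence and exit from the thymus. The median difference of the 13 was 0.09.

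**Figure D4:**
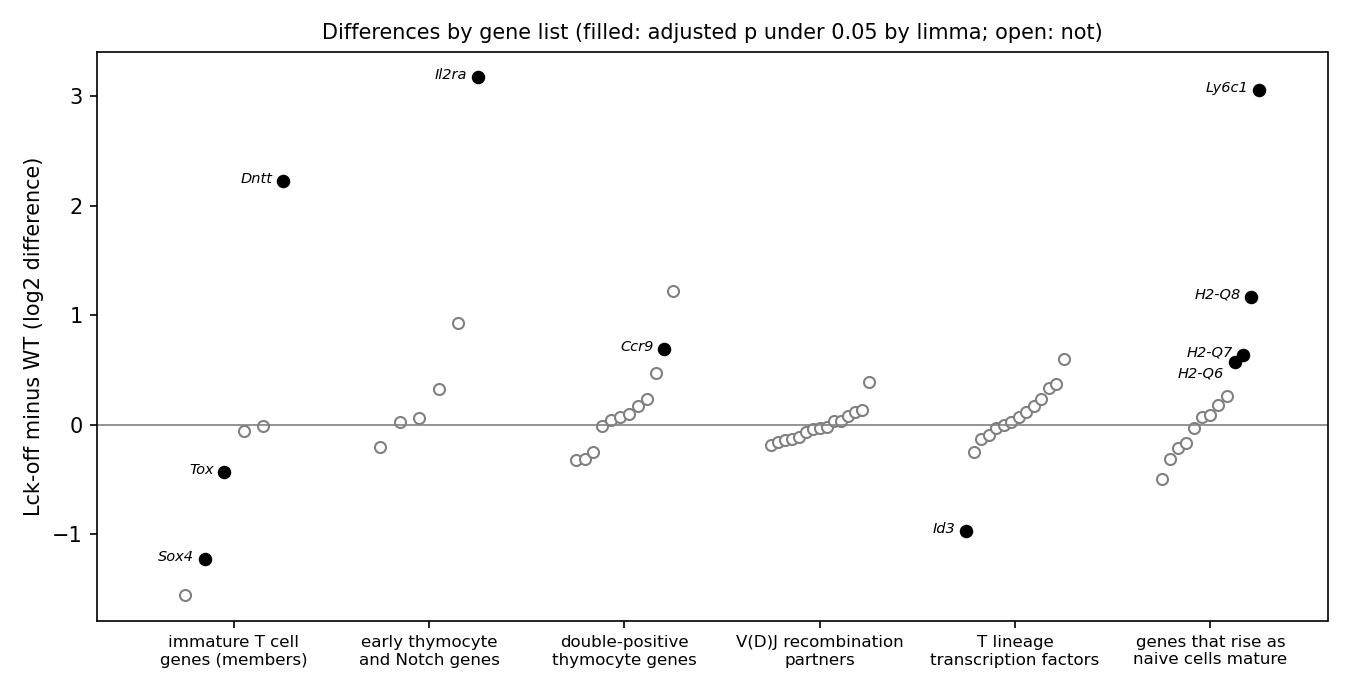
Lck-off minus WT difference (log2) of each measured gene, by list, with the 6 measured immature T cell genes at the left; filled points passed at an adjusted p under 0.05 by limma. The lists drawn have 1 to 4 filled points each, except the 15 V(D)J recombination partners, which have 0 and lie between -0.18 and 0.39; the points of Il2ra and Arpp21 set Lck-off against WT levels within background.

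Markers of further cell types were measured in the same samples, and their part in the results above was not tested. Of 14 macrophage, monocyte and neutrophil markers, 8 were measured, with a mean level of -0.06 to 0.43 in Lck-off and -0.75 to -0.07 in WT. The complement gene C1qb rose by 0.59 (limma adjusted p = 0.0469, lost on leaving out any array but Lck-off array 4), 0 fell, and Ngp stayed within background throughout. The partners of C1qb, C1qa and C1qc, were well above background on 4 Lck-off arrays and 1 WT array. They differed by 1.38 and 1.75 and did not pass (limma adjusted p = 0.0733 and 0.0932). These differences rest mostly on WT signal within background, which the list's mean levels also include. Fcer1g, a receptor chain gene of myeloid cells, differed by 0.90 (limma adjusted p = 0.220). In all, 4 of the 8 were at an unadjusted p under 0.05. The median difference of the 8 was 0.45, and 0.25 when only genes well above background on all 7 arrays were kept. Of 9 NK and innate lymphoid markers, 5 were measured. The granzyme gene Gzma, which NK cells and effector CD8 cells express, rose by 2.77 (limma adjusted p = 0.00106), and the factor gene Eomes fell by 0.86 (limma adjusted p = 0.00406). The list's mean level was 1.35 to 1.68 in Lck-off and 0.84 to 1.19 in WT, and Il1rl1 stayed within background throughout.

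Of the 9 gamma-delta T cell markers, which bear on Sox13 and Sox4, 7 were on the array and 2 were measured, while Blk, Il23r, Maf and Il17a stayed within background on all arrays. The 2 measured were Cd163l1 and 5830411N06Rik. Their mean level ran from -2.92 to -0.86 in Lck-off and from -0.90 to -0.09 in WT, and neither passed. Cd163l1 differed by -1.02 with overlapping groups and 5830411N06Rik by -1.11 without overlap (limma adjusted p = 0.289 and 0.256). The latter was well above background on 3 Lck-off arrays and 3 WT arrays. The median difference of the 2 was -1.06, and the part of such cells in the Sox4 level was not tested. CD4 T cell markers were measured for 3 of 4, with a mean level of 1.36 to 1.79 in Lck-off and 1.36 to 1.55 in WT, and 0 passed (0 at an unadjusted p under 0.05). Red cell and platelet markers (2 of 9 measured) and stromal markers (4 of 10 measured) also had 0 calls, with 0 and 1 at an unadjusted p under 0.05. The mean level of the red cell list was -1.53 to 0.51 in Lck-off and -4.33 to -0.18 in WT, and that of the stromal list -1.96 to -1.47 in Lck-off and -2.37 to -1.81 in WT.

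For each called gene, the 3 genes of most similar level over the 7 arrays were taken by Pearson's r among 18229 genes, as a description, since all of these arrays share the split into Lck-off and WT. For Dntt they were 2310061C15Rik (now Cmc2, r = 0.998), the granulin precursor gene Grn (r = 0.996) and Cish (r = 0.996), an inhibitor of cytokine signalling, which differed by 1.14, 0.80 and 1.79. For Sox4 they were 1810034E14Rik (r = 0.997), Ndrg1 (r = 0.994) and the adenylate cyclase gene Adcy6 (r = 0.991), which differed by -0.34, -2.20 and -0.80. For Tox they were Glt25d1 (now Colgalt1, r = 0.994), Bnip1 (r = 0.991) and the lipid receptor gene Lpar6 (r = 0.991), which differed by -0.28, -0.37 and -0.16.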

How the data were processed

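The 10 genes, the gene lists and the rule for naming genes were chosen with earlier results of these data known. Processed intensity came from Feature Extraction 10.7.3.1 run by the authors on array design 028005 (mm9 probe positions), with background subtraction and detrending within arrays, per the file headers. Mean and background intensity, deposited uncorrected, served 1 alternative. Flags for background, saturation and spot quality are the software's. The value table that was deposited is on a log2 scale, found from its values (column medians 6.34 to 6.35, r 0.984 to 0.988 with the scanner values); the submitters' processing notes name limma as its tool, and the sources used here give no further steps.

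A level was the log2 intensity less the 75th percentile of non-control spots on its array (208 to 243 scanner units). Non-uniform spots were dropped and the spots of each probe averaged. A probe with a gene name was kept if most of its spots were well above background on 3 or more arrays, which left 25576 of 55681. On each array 42.5% to 48.6% of probes were well above background and 0 spots were saturated. Each gene was read by its brightest kept probe. Lck-off (4 arrays) was compared with WT (3 arrays) by limma 3.58.1 under R 4.3.3, with tables read by data.table (version 1.17.8), two-sided, with adjustment over 18230 genes. The median SE of a difference was 0.11, and the number of arrays limits the precision. Where a gene was within background in 1 group, its fold is a lower bound that takes, per array, the higher of the gene's signal and the faintest spot well above background. Replicates are labelled biological; p-values measure the spread between these samples. The samples' replicate numbers did not pair them (r of deviations 0.11, 0.05 and -0.01). All arrays lay on 1 slide: WT 3, Lck-off 2 and Lck-off 3 in row 1, the others in row 2.

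Named genes were the 10 members, Lck, up to 3 called genes of smallest p per list and the 3 genes most similar to each called member; list genes and markers named that did not pass, and H2-Q6, were picked after their values were seen. A few list genes are not reported here by name. Alternatives were other background correction, scaling, filters, probe summaries, moderation and array weights, the deposited table, blocks by replicate number and slide row, each row alone and each array left out; leaving out population outlier spots was added after seeing the data. In simulated data for this comparison (18229 genes), 36%, 78%, 96% and 100% of genes changed by 0.5, 1, 2 and 3 on the log2 scale were called, and 3.73% of calls were false. Newer symbols came from a RefSeq table of GRCm38.p6, which gave names only.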

Additional observations from a re-analysis of the deposited data

Results flagged for a closer look

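On 1 of the 17 probes examined, a sample stood far from the others of its group. The Bcl11a probe that read 27.1 scanner units on Lck-off array 3 read 3.55 to 4.93 on the other Lck-off arrays and 3.57 to 9.19 in WT, and the gap to its nearest neighbour was 0.848 of the group's range on the log2 scale, past the 95% limit of Dixon's test for 4 samples. Chance marks about 1 in 20 groups in this way. The other Bcl11a probes gave 16.2 and 3.16 on that array, neither well above background.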

How the results depend on the processing

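The number of arrays and, for Rag1, Rag2, Ptcra, Bcl11a and Cd24a, signal near background set the limits. Dntt kept its direction in 22 of 22 alternatives and its call in 20, Sox4 in 22 and 19, and Tox in 22 and 12. Within slide row 1 alone Dntt differed by 2.22, Sox4 by -1.54 and Tox by -0.52, and within row 2 alone by 2.17, -0.97 and -0.33, none past the threshold (limma adjusted p 0.0549 to 0.347); these fits hold 3 or 4 arrays, and 0 members were then called higher or lower. With the replicate number as a block, Sox4 differed by -1.23 (limma adjusted p = 0.100) and Tox by -0.45 (0.169), so that 0 members were called lower, and 374 genes in all against 1527; the numbers share only a label, and 3 of 6 arrays correlated best with their own number. Tox differed by -0.43 with no filter on dim probes (limma adjusted p = 0.170, more genes tested) and by -0.44 with all probes averaged (0.0813), which left 1 member called lower. Over the repeats without 1 array, Tox ran from -0.49 to -0.37 and members called lower from 1 to 2. Satb1 turned to 0.050 in slide row 2 and ran from -0.10 to 0.0067 over the repeats without 1 array, and Sox13 turned to 0.12 in row 2 and 0.0015 with array weights and ran from -0.070 to 0.050 over those repeats; the cause was not tested. With no filter 717 of 34797 genes were called (358 higher, 359 lower), in row 1 alone 105 (85 higher, 20 lower) and in row 2 alone 0 by limma (2711 at an unadjusted p under 0.05). Without 1 array, 960 to 1406 genes were called. Leaving out population outlier spots, added after seeing the data, gave 1527.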
